A study of Mus musculus with 6 samples.

Results

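The genes described here encode the fatty acid elongases and the acyl-chain desaturases of mouse beige adipocytes. They were taken by name from the deposited RNA-seq gene table: the elongase genes Elovl1, Elovl3, Elovl4, Elovl5, Elovl6 and Elovl7 and the desaturase genes Scd1, Scd2, Fads1 and Fads2. All 10 had a single row among the 13962 genes of the table, and all 10 passed the filter on low counts that left 13192 genes for testing. The rule names genes and uses no measured value, but it was set with earlier results of these data known.

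The libraries came from preadipocytes of the inguinal white fat of C57BL/6 mice that carried floxed Tle3 alleles and CreERT2, a Cre recombinase switched on by tamoxifen, and that had been immortalized with the large T antigen. TLE3 is a transcriptional corepressor of the Groucho family. All cells received the same differentiation mixture, which contained 20 nM insulin, 1 nM T3 (thyroid hormone), 1 uM rosiglitazone, an agonist of PPARγ, 0.5 mM isobutylmethylxanthine, a phosphodiesterase inhibitor, 0.5 uM dexamethasone, a glucocorticoid, and 0.125 mM indomethacin. On day 4 they received either 4-hydroxytamoxifen at 500 nM (labelled TLE3 KO, n = 3 libraries) or ethanol (control, n = 3) for 24 hours, and they were harvested on day 10. Both groups share the genotype and the T antigen, and the series as given here holds no library of cells without Cre that were given tamoxifen, so what the compound or Cre does cannot be told apart from what the deletion does. The labels do not say whether the 3 libraries of a group were separate cultures, and the p-values below therefore reflect only how much these libraries vary, which may be technical variation.

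Fatty acids that a cell makes or takes up are lengthened in the endoplasmic reticulum by a cycle of reactions whose condensing step is carried out by an ELOVL enzyme. The ELOVL enzymes differ in the chains that they accept: some act on saturated and monounsaturated chains and others on polyunsaturated chains. Stearoyl-CoA desaturases (SCD) place a double bond in saturated chains and so make oleate and palmitoleate, the main monounsaturated fatty acids of stored triglyceride. FADS2 and FADS1 act in turn on the essential fatty acids on the way to arachidonic acid and other long polyunsaturated fatty acids. Desaturases draw their electrons from cytochrome b5 and its reductase.

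Library totals ran from 14606228 to 19294632 counts. Tle3 itself stood at 151.3 to 152.1 CPM in the controls (CPM: counts scaled to library size by the TMM method) and at 286.9 to 294.2 CPM in the libraries labelled knockout, a 1.91-fold difference in the direction opposite to the label (edgeR adjusted p 3.54e-07). Counts over the whole gene do not separate the deleted exons from those that remain, so they do not check the labels, and every direction given here rests on the labels. Of the 10 adipocyte markers listed, all had counts. Summed, they ran from 11510 CPM in control 3 to 13740 CPM over the controls, and from 12980 to 14890 CPM under the knockout label. Gene by gene their median log2 fold change was 0.165, with 8 positive and 2 negative. Cd36 (0.28, edgeR adjusted p 0.0455) and Lipe (0.241, 0.0368) were called higher by the rule given below. Lpl, an abundant gene of this list, had a log2 fold change of −0.162 and was not called (edgeR adjusted p 0.0992). All 12 preadipocyte and fibroblast markers also had counts, at 21440 to 24710 CPM in the controls against 19080 to 20010 CPM. Fn1, Col1a1, Col1a2 and Col3a1 made up most of that sum. Fn1 fell from 9829 to 7194 CPM in the mean (log2 fold change −0.45, edgeR adjusted p 0.00283). Col1a1 (−0.053), Col1a2 (−0.089) and Col3a1 (−0.181) were not called. Of the 12 genes, 5 were called lower and 1 higher, which was Dlk1 (log2 fold change 0.722, edgeR adjusted p 0.00363). Of 8 macrophage and 7 endothelial markers, 4 and 3 had a row, and each list summed to at most 8.158 and 3.554 CPM in any library. All 11 beige markers had counts, and their sum was 595.6 to 713.7 CPM in the controls and 955.6 to 1108 CPM in the libraries labelled knockout. Fewer cells of a type and less RNA per cell cannot be told apart in such bulk libraries. The part of the adipocyte and fibroblast markers in the results below was not tested. The scaling to adipocyte markers given there applies a single factor per library, built from markers of which some were themselves called higher. It moved the median log2 fold change of all tested genes from −0.002 to −0.146. Small rises can therefore lose their call through the factor alone. The scaling cannot tell marker content apart from a response shared with those markers.

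In the libraries labelled knockout most of the 4 desaturase genes taken here rose, while some elongase genes fell. Among the 4 desaturase genes, 3 rose (Scd1, Fads1 and Fads2) and 0 fell. Their median log2 fold change was 0.21. Among the 6 elongase genes, 0 rose and 2 fell (Elovl3 and Elovl6). Here the median was −0.18, and all 6 had a log2 fold change from −0.66 to 0.01. A gene is said to rise or fall where its edgeR quasi-likelihood p, adjusted by the Benjamini-Hochberg method over all tested genes, is under 0.05. By that rule 12.3% of all tested genes were called, 6.91% as higher and 5.44% as lower, against 5 of the 10 genes here, 3 as higher and 2 as lower. These counts depended on the setting. With scaling to adipocyte markers 1 gene rose and 1 fell, and when 1 library was left out 1 to 3 rose and 0 to 2 fell. The 4 other desaturase genes tested (Scd3, Scd4, Fads3 and Degs1) were not called. The median over all tested genes was −0.002. In 6 of the 10 genes the 3 controls and the 3 libraries labelled knockout did not overlap in CPM, against 31.8% of all tested genes (16.0% as higher and 15.8% as lower). Depth ranged from 20 to 168204 counts per gene and library, and a small change passes the test more readily in a deeply counted gene.

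**Figure D1:**
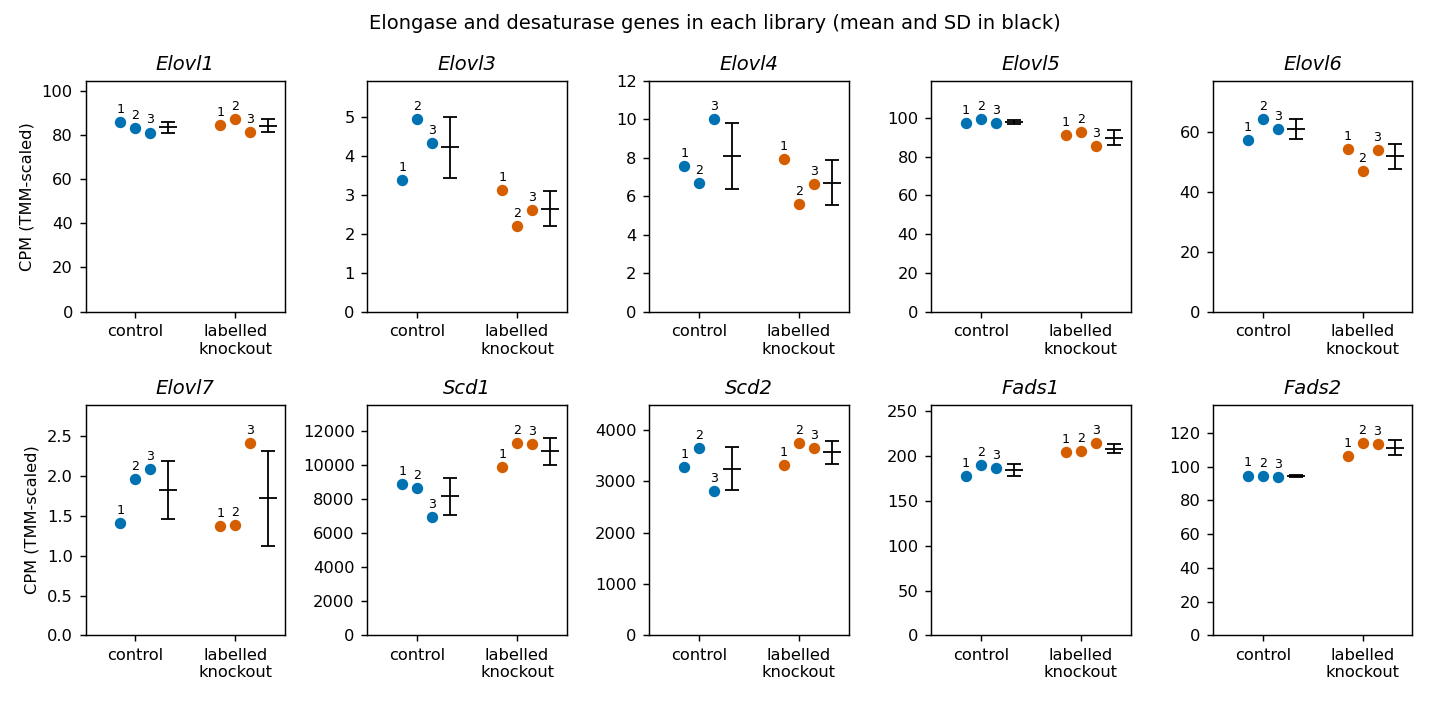
Each panel shows 1 gene, with TMM-scaled CPM from 0 on the vertical axis. Points are single libraries numbered by replicate (blue control, orange labelled knockout), and the black bar beside them gives the mean and SD. The orange points lie above all blue points for Scd1, Fads1 and Fads2, and below them for Elovl3, Elovl5 and Elovl6.

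Per unit of gene length the stearoyl-CoA desaturases stood far above the other genes. On the scale of the deposited FPKM values, which the authors rounded to whole numbers, Scd1 ran from 1456 to 2311 over the 6 libraries and Scd2 from 524 to 679. Fads2 (62 to 75) and Fads1 (52 to 61) came next, and their ranges did not overlap, although Fads1 had the more counts of the pair. Among the elongases the order was Elovl1 (29 to 32), Elovl5 (24 to 28) and Elovl6 (8 to 11), again without overlap between neighbours. Elovl4 (2 to 3) and Elovl3 (1 to 3) overlapped and cannot be ordered at this rounding, and Elovl7 was listed at 0 FPKM in all 6 libraries. On this scale elongase transcripts were led by the gene for the enzyme of saturated very long chains (Elovl1) and the gene for that of polyunsaturated chains (Elovl5). By counts their order was the other way. Elovl5 had means of 97.93 CPM in the controls and 89.82 CPM under the knockout label, against 83.33 and 84.14 CPM for Elovl1.

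Scd1 (ENSMUSG00000037071), the main stearoyl-CoA desaturase of fat and liver, was among the most abundant transcripts and rose. Controls 1 to 3 measured 8904, 8647 and 6940 CPM, and the libraries labelled knockout measured 9906, 11290 and 11260 CPM. Every library labelled knockout lay above every control, and control 3, the library with the lowest adipocyte markers, was the lowest of all. The means were 8164 ± 1070 and 10820 ± 791 CPM (SD, n = 3), and the 1.33-fold rise corresponds to 0.41 on the log2 scale (SE 0.0981, 95% interval 0.19 to 0.62; edgeR adjusted p 0.0222). In raw terms Scd1 took 0.82% ± 0.101 of all counts in the controls and 1.08% ± 0.0679 in the libraries labelled knockout (SD, n = 3). The call was lost without the library labelled knockout 2 (edgeR adjusted p 0.0732) or 3 (0.101). With libraries scaled to equal adipocyte markers, a scaling chosen after the data were seen that moved the median of all genes to −0.15, Scd1 was still called higher (log2 fold change 0.27, edgeR adjusted p 0.0176).

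Scd2 (ENSMUSG00000025203), the isoform known for its expression in brain and in differentiating fat cells, did not pass the test. Its levels were 3276, 3644 and 2816 CPM in the controls and 3315, 3739 and 3645 CPM in the libraries labelled knockout, so that the groups overlapped, with control 3 again the lowest. The log2 fold change was 0.14 (95% interval −0.06 to 0.33; edgeR adjusted p 0.348), which leaves room for a rise of the size seen for Fads1 or Fads2 but not for that of Scd1. Scaled to equal adipocyte markers its log2 fold change was 0 (edgeR adjusted p 0.999).

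The balance between these genes was compared directly, as the share of Scd1 in the summed counts of Scd1 and Scd2. Controls 1 to 3 had shares of 73.1%, 70.4% and 71.1%, and the libraries labelled knockout had 74.9%, 75.1% and 75.6%. The groups did not overlap, and the libraries labelled knockout lay within less than 1 point of each other. The means were 71.5% ± 1.4 and 75.2% ± 0.321 (SD, n = 3), a difference of 3.67 percentage points. By a two-sided exact permutation test p was 0.1, which is the lowest value possible with 3 against 3 libraries, and 0.3 after adjustment over the 3 pairs of genes compared. On the FPKM scale, per length, the shares were 73.9% ± 1.34 and 77.4% ± 0.308 (SD, n = 3). Scd1, Scd2, Scd3 and Scd4 are close copies that lie within 205 kb on chromosome 19, and how reads shared among them were counted is not given in the sources used here, so the split between them is uncertain.

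The minor copies were low. Scd3 measured 22.31 ± 3 and 26.37 ± 2.30 CPM (SD, n = 3; edgeR adjusted p 0.139), and Scd4 0.8135 ± 0.0873 and 1.108 ± 0.222 CPM (SD, n = 3; edgeR adjusted p 0.329). Both levels are small beside those of Scd1 and Scd2 in the same libraries.

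Fads2 (ENSMUSG00000024665), whose enzyme carries out the entry step of polyunsaturated fatty acid synthesis, rose with the smallest adjusted p of the 10 genes. It stood at 94.74, 94.49 and 93.67 CPM in the controls and at 106.1, 113.9 and 113.6 CPM in the libraries labelled knockout. The controls were tightly grouped, and each library labelled knockout was above them. The means were 94.3 ± 0.56 and 111.2 ± 4.44 CPM (SD, n = 3), a 1.18-fold rise (log2 fold change 0.24, SE 0.0441, 95% interval 0.14 to 0.33; edgeR adjusted p 0.00689). This call held without each library in turn and with DESeq2 and limma-voom. It was lost with libraries scaled to equal adipocyte markers (log2 fold change 0.09, edgeR adjusted p 0.452).

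Fads1 (ENSMUSG00000010663), whose enzyme acts after FADS2 and an elongation step, also rose. Its values were 177.6, 190.1 and 186.5 CPM in the controls and 204.8, 206.3 and 214.6 CPM in the libraries labelled knockout, with no overlap between the groups. The rise was 1.13-fold, from 184.7 ± 6.46 to 208.6 ± 5.24 CPM (SD, n = 3; log2 fold change 0.17, SE 0.0426, 95% interval 0.08 to 0.27; edgeR adjusted p 0.0228). The call was lost without control 1 (adjusted p 0.0902), without the library labelled knockout 2 (0.0596) or 3 (0.126), and with scaling to adipocyte markers (0.818). Fads1, Fads2 and Fads3 lie within 155 kb on chromosome 19. Fads3, a related gene whose enzyme acts on sphingoid bases, measured 187.7 ± 6.29 and 194.1 ± 8.23 CPM (SD, n = 3) and was not called (log2 fold change 0.05, 95% interval −0.05 to 0.15; edgeR adjusted p 0.539).

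The proportion of Fads1 to Fads2 was not shown to differ between the groups. Fads1 made up 66.2% ± 0.86 of the counts of the pair in the controls and 65.2% ± 0.744 in the libraries labelled knockout (SD, n = 3), and the ranges overlapped (exact permutation p = 0.3, adjusted p 0.45 over the 3 pairs). Per length, on the FPKM scale, the shares were 46.3% ± 0.94 and 45.0% ± 0.899 (SD, n = 3).

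**Figure D2:**
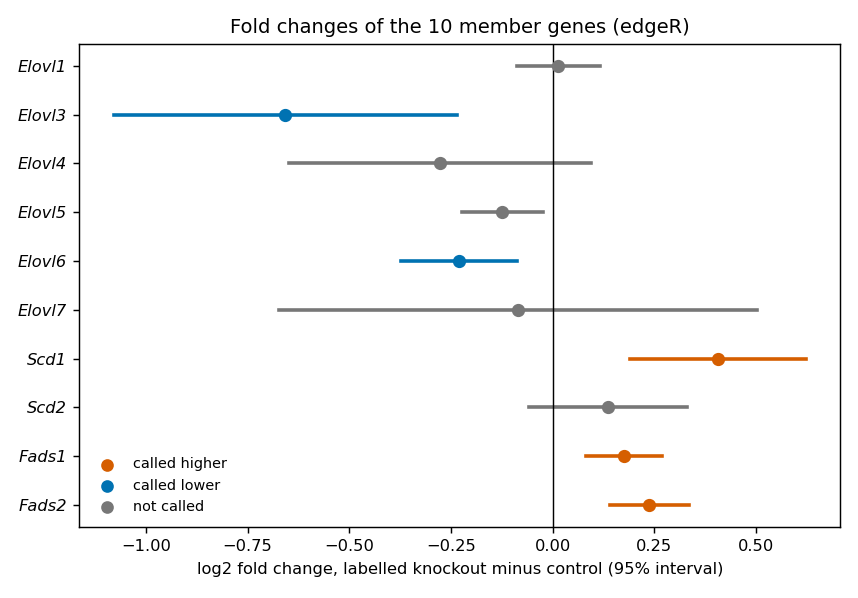
Points give the edgeR log2 fold change of each gene, libraries labelled knockout minus controls, and lines its 95% interval. Orange marks genes called higher, blue genes called lower and grey genes that were not called. Scd1, Fads1 and Fads2 lie right of 0 and Elovl3 and Elovl6 left of it; the intervals of Elovl3, Elovl4 and Elovl7, the genes with the fewest counts, are the widest.

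Elovl6 (ENSMUSG00000041220), whose enzyme lengthens palmitate to stearate and so supplies the preferred substrate of SCD, fell. It stood at 57.35, 64.10 and 61.05 CPM in the controls and at 54.25, 47.01 and 54.04 CPM in the libraries labelled knockout. All 3 libraries labelled knockout were below the lowest control, and the library labelled knockout 2 was the lowest. From 60.83 ± 3.38 to 51.77 ± 4.12 CPM (SD, n = 3) it fell by 0.23 on the log2 scale (SE 0.0643, 95% interval −0.37 to −0.09; edgeR adjusted p 0.0397). The call was lost with DESeq2 (adjusted p 0.0516), with scaling to adipocyte markers (log2 fold change −0.37, adjusted p 0.0504), and in edgeR without control 1, control 2, control 3 or the library labelled knockout 2 or 3 (adjusted p 0.0532 to 0.132).

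Elovl5 (ENSMUSG00000032349), whose enzyme lengthens polyunsaturated chains between the FADS2 and FADS1 steps, was not called. Its levels were 97.45, 99.16 and 97.19 CPM in the controls and 91.16, 92.78 and 85.51 CPM in the libraries labelled knockout. The groups did not overlap, but the log2 fold change of −0.12 (95% interval −0.22 to −0.03; unadjusted p 0.0191, edgeR adjusted p 0.1) missed the threshold after adjustment over all genes. The share of Elovl6 in the counts of Elovl6 and Elovl5 was 38.3% ± 1.13 in the controls and 36.6% ± 2.63 in the libraries labelled knockout (SD, n = 3), with overlapping ranges from 33.6% to 39.3% (exact permutation p = 0.5, adjusted p 0.5 over the 3 pairs). The difference of −1.74 points became −0.28 points without the library labelled knockout 2 and −2.83 points without the library labelled knockout 3.

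**Figure D3:**
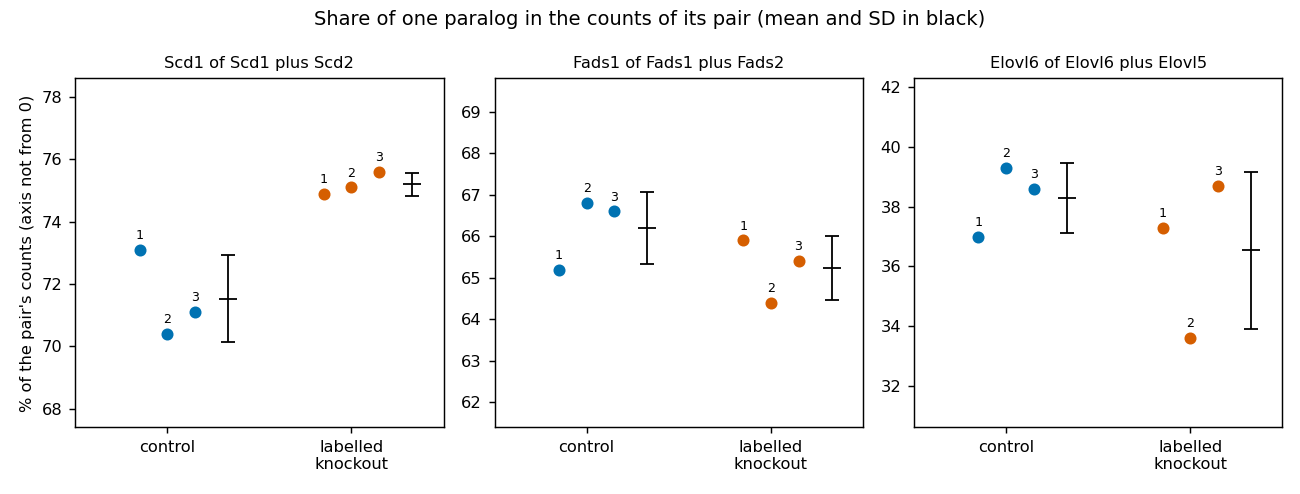
Each panel gives the percentage of a pair's counts that fell on its first gene, per library (blue control, orange labelled knockout; replicate numbers beside the points, mean and SD in black; axes do not start at 0). For Scd1 of Scd1 plus Scd2 the orange points, from 74.9% to 75.6%, lie above the blue points, from 70.4% to 73.1%; in the other panels the groups overlap.

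The bases before the start sites of Elovl6 and Elovl5, both lower in every library labelled knockout than in any control, are shown with the short motifs found in them. Of all tested genes 15.8% were lower in this way, and Elovl5 was not called. The windows of the other matched genes, Fads2 among them, are not shown. RefSeq windows (build GRCm38.p6, another build than the mm9 named in the submitters' processing notes) were matched by symbol for 6 of the 10 genes (Elovl1, Elovl4, Elovl5, Elovl6, Elovl7 and Fads2); Elovl3, Scd1, Scd2 and Fads1 had no entry. The stretch for Elovl6 is chr3:129532136-129532354 (plus strand, 219 bases) and that for Elovl5 is chr9:77917115-77917363 (plus strand, 249 bases), each ending at the base before the first annotated transcript start of GENCODE M21. Capitals mark CCCNNGGG, the palindrome typical of sites bound by EBF factors, in Elovl6, and CACGTG (an E-box) and CCAAT, read as ATTGG on the strand shown, in Elovl5.
Elovl6: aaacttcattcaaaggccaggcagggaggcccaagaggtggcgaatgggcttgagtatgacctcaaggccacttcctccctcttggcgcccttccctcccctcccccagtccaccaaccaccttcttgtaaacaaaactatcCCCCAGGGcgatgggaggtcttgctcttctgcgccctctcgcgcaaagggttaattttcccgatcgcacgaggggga
Elovl5: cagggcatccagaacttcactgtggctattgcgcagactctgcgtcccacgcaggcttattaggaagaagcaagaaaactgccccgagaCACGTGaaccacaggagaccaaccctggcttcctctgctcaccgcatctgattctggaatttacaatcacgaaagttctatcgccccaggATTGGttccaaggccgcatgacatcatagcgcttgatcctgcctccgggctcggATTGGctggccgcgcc

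The motifs in these stretches are common ones. Over the 250 bases before the start in all 32851 windows of the table, searched on both strands, CCCNNGGG was present in 11.8%, CCAAT in 33.8% and CACGTG in 6.02%. Among the 7 windows of the 6 matched genes, CCCNNGGG was found in that of Elovl6, CACGTG in that of Elovl5, CCAAT in those of Elovl1 and Elovl5, and the GC box GGGCGG (32.7% of all windows) in 5 windows, of Elovl1, Elovl4, Elovl7 and Fads2. A match describes the letters and does not show a bound site.

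Elovl3 (ENSMUSG00000038754), whose enzyme makes very long saturated and monounsaturated chains and whose gene is known for its strong induction in brown fat in the cold, fell from an already low level. It had 60, 73 and 85 counts in the controls and 50, 32 and 39 in the libraries labelled knockout, which correspond to 3.384, 4.941 and 4.339 CPM and to 3.118, 2.212 and 2.612 CPM. The groups did not overlap, but control 1 and the library labelled knockout 1 were close to each other. The means were 4.221 ± 0.785 and 2.647 ± 0.454 CPM (SD, n = 3), and the level fell by 0.66 on the log2 scale (SE 0.191, 95% interval −1.08 to −0.24; edgeR adjusted p 0.0469). Elovl3 was the 1 gene of 11 listed beige markers that fell, while 7 rose, among them Ucp1, which went from 70.93 ± 8.35 to 102.9 ± 7.57 CPM (SD, n = 3; edgeR adjusted p 0.00241). Elovl3 missed the threshold with DESeq2 (adjusted p 0.0793), with limma-voom (0.0577), with the replicate number as a block (0.0553), and in edgeR without control 2, control 3 or the library labelled knockout 2 or 3 (0.1 to 0.155). In GENCODE M21, Elovl3 overlaps Pitx3 on the opposite strand, and the strand setting of the authors' counting is not given in the sources used here.

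The other elongase genes were not called. Elovl1 (ENSMUSG00000006390), for the enzyme of saturated very long chains used in sphingolipids, was level, at 85.72, 83.25 and 81.01 CPM in the controls and 84.49, 86.90 and 81.03 CPM in the libraries labelled knockout. Its log2 fold change of 0.01 had a 95% interval of −0.09 to 0.12 (edgeR adjusted p 0.88), which leaves out changes of the size of Scd1 or Elovl6. The locus of Elovl1 overlaps that of Cdc20, a cell cycle gene on the opposite strand, which measured 98.53 ± 1.09 and 98.68 ± 5.93 CPM (SD, n = 3).

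Elovl4 (ENSMUSG00000032262), for the enzyme of the longest chains found in skin, retina and brain, stood at 7.557, 6.701 and 10.0 CPM in the controls and 7.919, 5.600 and 6.629 CPM in the libraries labelled knockout. These ranges overlapped, and the log2 fold change was −0.28 (95% interval −0.65 to 0.10; edgeR adjusted p 0.319). Elovl7 (ENSMUSG00000021696), for another enzyme of saturated chains, had only 20 to 41 counts per library, or 1.372 to 2.411 CPM. With so few counts its 95% interval ran from −0.67 to 0.50 (log2 fold change −0.09, edgeR adjusted p 0.875), so that changes of the size of all 5 called genes lie within it and were not detectable at this depth.

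Of 6 tested genes for the enzymes that complete the elongation cycle, 1 rose and 0 fell, and the median log2 fold change was −0.04. The 1 that rose was Tecr, the reductase of the closing step, at 160.6, 152.5 and 150.5 CPM in the controls and 172.8, 178.9 and 178.1 CPM in the libraries labelled knockout (1.14-fold, edgeR adjusted p 0.0135; lost without the library labelled knockout 2, 0.0547, or 3, 0.0747). Scaled to equal adipocyte markers, Tecr had a log2 fold change of 0.05 (edgeR adjusted p 0.678). Hsd17b12, the ketoacyl reductase of the cycle, stood at 346.0 ± 16.3 and 346.5 ± 23.8 CPM (SD, n = 3; edgeR adjusted p 0.984). Hydratase genes, listed under their older symbols Ptpla, Ptplb, Ptplad1 and Ptplad2, were not called. Of these Ptplad2 (now Hacd4) was lower in every library labelled knockout than in any control, at 5.865, 5.550 and 7.402 CPM against 4.864, 4.425 and 5.424 CPM, with a log2 fold change of −0.37 (95% interval −0.69 to −0.04; unadjusted p 0.0307, edgeR adjusted p 0.134). Elovl2, Fads6, Degs2 and Tecrl were also looked up but had no row under the symbols searched, so they could not be tested.

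In the electron supply of the desaturases 1 of 6 tested genes rose and 0 fell. Cyb5b, the cytochrome b5 of the outer mitochondrial membrane, rose from 523.2 ± 31.3 to 597.8 ± 14.4 CPM (SD, n = 3; 1.14-fold, edgeR adjusted p 0.0311). Cyb5 (now Cyb5a), the cytochrome b5 of the endoplasmic reticulum that serves SCD and FADS enzymes, measured 225.2 ± 10.8 and 210.4 ± 2.18 CPM (SD, n = 3; edgeR adjusted p 0.177). It was not called, but every library labelled knockout lay below every control (log2 fold change −0.10, unadjusted edgeR p 0.0488). The call for Cyb5b was lost without control 1, control 3 or any 1 of the libraries labelled knockout (adjusted p 0.0505 to 0.14), and with scaling to adipocyte markers (log2 fold change 0.05 against 0.19, adjusted p 0.6).

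Upstream of elongation, 2 of the 9 genes listed under fatty acid supply rose and 0 fell. Thrsp, a lipogenic nuclear and cytosolic protein, rose 1.45-fold from 98.28 ± 8.16 to 141.9 ± 9.90 CPM (SD, n = 3; edgeR adjusted p 0.000904). Acacb, the mitochondrial acetyl-CoA carboxylase, rose 1.3-fold (edgeR adjusted p 0.00601), and both calls held without each library in turn. Scaled to adipocyte markers the call for Acacb was lost (log2 fold change 0.24 against 0.38, adjusted p 0.0742) and that for Thrsp held (0.39, adjusted p 0.0095). Acaca, the other acetyl-CoA carboxylase listed, was not called (log2 fold change 0.11, edgeR adjusted p 0.169), although its groups did not overlap. Fasn, which makes the palmitate that ELOVL6 extends, stood at 892.2 ± 34.3 and 944.8 ± 61.1 CPM (SD, n = 3; edgeR adjusted p 0.371). Me1 and Slc25a1 were lower in every library labelled knockout than in any control but were not called. Their log2 fold changes were −0.18 (edgeR adjusted p 0.0517) and −0.19 (0.0643). Of 14 alternatives, Me1 was called lower in 2 and Slc25a1 in 4.

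Among 8 tested genes of fatty acid activation and transport, Acsl1 rose and Acsl4 and Acsl5 fell. Acsl1, the main acyl-CoA synthetase of fat cells, rose 1.15-fold from 580.1 ± 36.5 to 665.2 ± 23.8 CPM (SD, n = 3; edgeR adjusted p 0.035). Acsl4, the synthetase that prefers arachidonic acid, fell from 130.6 ± 13.4 to 110.0 ± 5.29 CPM (SD, n = 3; log2 fold change −0.25, edgeR adjusted p 0.0419), and Acsl5 fell by 0.15 on the log2 scale (edgeR adjusted p 0.0422). Without 1 library, the call for Acsl1 held only without control 2 (adjusted p 0.061 to 0.171 otherwise), that for Acsl4 only without control 1 (0.0538 to 0.143 otherwise), and that for Acsl5 in no case (0.0721 to 0.141). Acsl5 was also lost with DESeq2 (adjusted p 0.161) and with the replicate number as a block (0.0604). Scaled to adipocyte markers, Acsl1 (log2 fold change 0.06, adjusted p 0.566) and Acsl5 (−0.29, 0.0723) were lost and Acsl4 held (−0.39, 0.0456).

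Of 13 genes that use the products, ceramide synthases and lysophospholipid acyltransferases, 0 rose and 1 fell, and the median log2 fold change was −0.16. This was Lass6 (now Cers6), a ceramide synthase of palmitoyl-CoA, at a log2 fold change of −0.24 (edgeR adjusted p 0.0381; lost without control 1, control 3 or the library labelled knockout 2 or 3, adjusted p 0.107 to 0.138, and with scaling to adipocyte markers, log2 fold change −0.38, adjusted p 0.0678). Lpcat3, which places polyunsaturated chains in membrane phospholipids, had a log2 fold change of 0.08 (edgeR adjusted p 0.431).

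In the peroxisome, where very long chains are shortened, 1 of 8 genes rose and 1 fell. Scp2, the thiolase and sterol carrier protein, rose 1.22-fold (edgeR adjusted p 0.0434), and Abcd2, an importer of very long chain acyl-CoA, fell by 0.27 on the log2 scale (edgeR adjusted p 0.0144). The call for Scp2 was lost without control 1, control 3 or the library labelled knockout 2 or 3 (adjusted p 0.0754 to 0.17) and that for Abcd2 without the library labelled knockout 2 (0.0587) or 3 (0.0696). Scaled to adipocyte markers, Scp2 was lost (log2 fold change 0.15, adjusted p 0.202) and Abcd2 held (−0.41, 0.0207).

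Of 14 genes for regulators of fatty acid synthesis and desaturation, 2 rose and 1 fell. Ppara, a fatty acid-sensing nuclear receptor, rose 1.35-fold from 70.99 ± 5.97 to 95.55 ± 7.17 CPM (SD, n = 3; edgeR adjusted p 0.0033), and Nr1h3, the gene of LXRα, a sterol-sensing receptor known to raise Scd1 and Srebf1, rose 1.17-fold (edgeR adjusted p 0.0302). Rxra, their common partner, fell from 118.2 ± 4.34 to 93.79 ± 4.98 CPM (SD, n = 3; edgeR adjusted p 0.00234). Srebf1, the master gene of lipogenic transcription, stood at 420.4 ± 37.7 and 470.3 ± 19.8 CPM (SD, n = 3; log2 fold change 0.16, edgeR adjusted p 0.122), and Pparg at a log2 fold change of 0.16 (edgeR adjusted p 0.128). Nr1h3 missed the threshold when control 1, control 3 or the library labelled knockout 3 was left out (adjusted p 0.0654 to 0.147) and with DESeq2 (0.0567). Scaled to adipocyte markers, Nr1h3 (log2 fold change 0.09, adjusted p 0.518) and Ppara (0.29, 0.0664) were lost and Rxra held (−0.48, 0.00344).

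Over the 8 lists around the elongases and desaturases, 8 of 68 tested genes rose and 5 fell (median log2 fold change 0.008), beside 6.91% and 5.44% of all tested genes. With scaling to adipocyte markers 1 rose and 5 fell. The genes that rose numbered 13 without control 2, 4 without control 1, control 3 or the library labelled knockout 2, and 3 without the library labelled knockout 3. Those that fell numbered 1 without the library labelled knockout 2 or 3 and 3 without any 1 of the other libraries.

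**Figure D4:**
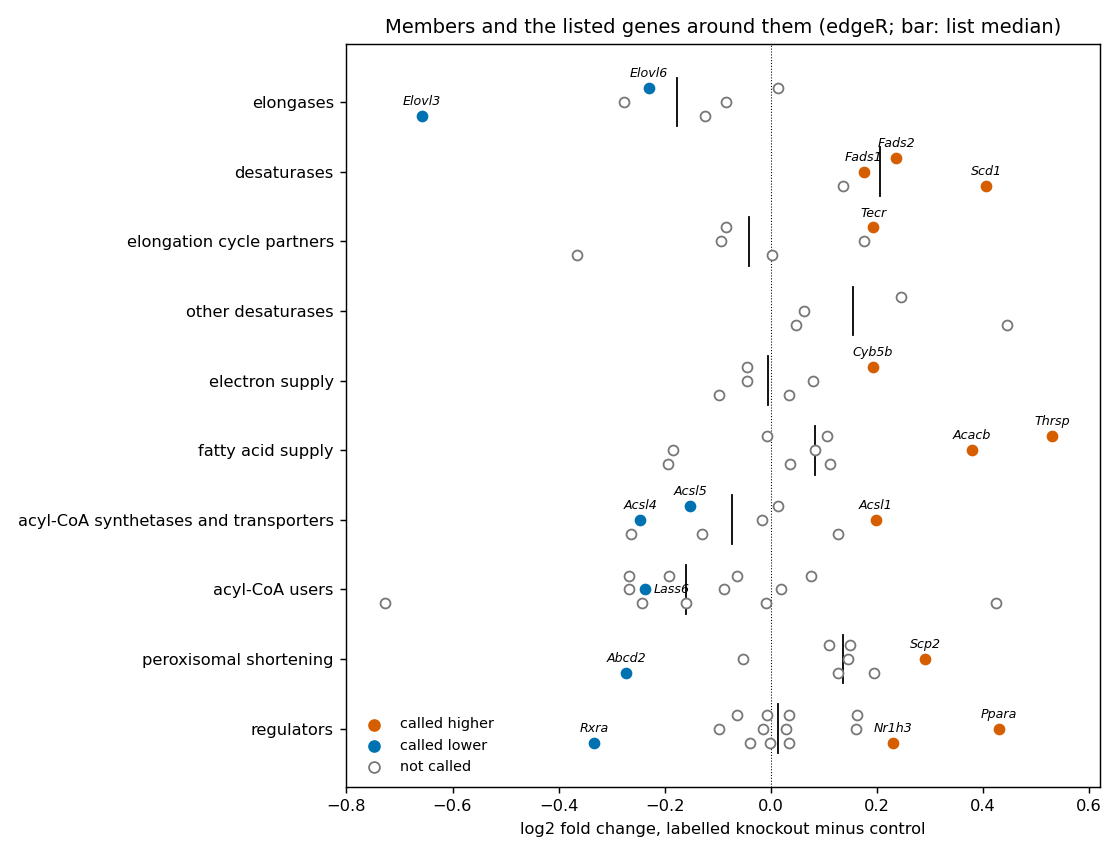
Each row is 1 list and each point 1 tested gene, placed by its edgeR log2 fold change (libraries labelled knockout minus controls); vertical bars are list medians. Filled points are called genes (orange higher, blue lower) with their symbols, and open points were not called. The desaturase bar lies at 0.21 and the elongase bar at −0.18, while the bars of the other lists lie between −0.16 and 0.15.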

How the data were processed

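Poly(A) RNA from 6 libraries was sequenced with a stranded kit, per the labels' protocols. The authors deposited 1 table with whole-number counts per gene and, beside them, rounded FPKM values (whole numbers only), handled here as a score and used to compare levels between genes per length. Novoalign 2.8, Picard and DESeq2, with build mm9, are listed in the submitters' processing notes without a role. Counter, annotation and strand setting were not given in the sources used here. Genes were taken by symbol or older symbol.

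Counts were tested with edgeR 4.0.16 (R 4.3.3): expression filter by group (770 genes set aside), TMM factors, a quasi-likelihood fit with the group alone, and Benjamini-Hochberg adjustment over 13192 genes. CPM are given as mean ± SD. The SE is the absolute log2 fold change over the square root of F. The biological coefficient of variation was 5.25%. No 2 libraries of a group held the same counts within sampling noise (chi-square per degree of freedom 2.95 to 7.87). The scripts were checked on simulated counts, with changes larger than those of Scd1, Fads1, Fads2 and Elovl6. That check therefore does not cover calls of their size. Alternatives were DESeq2 1.42.0, limma-voom (limma 3.58.1), other scaling, other filters, the replicate number as a block, and leaving out each library.

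The genes and lists were chosen with earlier results of these data known. Named genes were all 10 members, up to 6 called genes per list with the smallest adjusted p, and Srebf1, Nr1h3, Pparg, Fasn, Hsd17b12, Tecr and Scd3; other genes were named after their values were seen, as were the motifs. Beside the lists described, lists of muscle (5 of 8 genes in the table, 0 called) and keratinocyte or sebocyte markers (2 of 6, 0 called) were examined. The genes with levels most alike to those of Elovl6 and Elovl3 are not reported here.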

Additional observations from a re-analysis of the deposited data

How the results depend on the processing

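No called member or listed gene changed direction in any alternative. Of 140 values for the 10 members under the alternatives, 119 kept their side of the threshold and 21 lost a call; Fads2 lost its call only under the scaling to adipocyte markers, and none of the 5 members not called became called. Members that rose (3 as reported) numbered 1 under that scaling and 1 to 3 when 1 library was left out. Members that fell (2 as reported) numbered 0 with DESeq2, 1 with limma-voom, 1 with the scaling to adipocyte markers and 0 to 2 when 1 library was left out. With the replicate block, which adds the replicate number to the model, 1 member fell; 1 of 3 numbers had libraries of both groups whose deviations correlated above 0.1 and that correlated best with their own number, so the numbers were not taken as pairs. Over all genes, 713 were called under the scaling to adipocyte markers (111 as higher), and when 1 library was left out 621 to 1895 were called, 332 to 1025 as higher and 289 to 870 as lower. Genes of the 8 surrounding lists that rose (8) numbered 1 under that scaling and 3 to 13 when 1 library was left out, and those that fell (5) numbered 1 to 3 in the latter case. When 1 library was left out, the group differences in share within the 3 gene pairs moved by less than the larger of the group SDs. They were 3.08 to 4.46 points for Scd1, −1.45 to −0.56 for Fads1 and −2.83 to −0.28 for Elovl6. The same held when FPKM was used (3.45, −1.27 and −1.44). For Elovl6 that SD (2.63 points) is larger than the difference itself (−1.74 points), so the comparison says little about this pair. FPKM moved the shares themselves by far more, since it scales by gene length. Fits with 1 library fewer generally have less power, but without control 2 the genes called numbered 1895, against 1629 in the main fit. The cause of the lost calls was not tested. At 20 to 85 counts per library, depth limits Elovl3 and Elovl7.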

Other observations

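For Scd1, Fads2 and Fads1, the genes whose log2 CPM ran most alike over the 6 libraries were listed from 9839 other named genes that averaged 5 CPM or more. The 6 libraries fall into 2 groups and share their depth and composition effects, so these values describe the pattern only. For Scd1 they were Hsdl2 (Pearson r 0.998), Fabp5 (0.998) and Zfp229 (0.997). For Fads2 they were Ndufb2 (0.999), Fam40b (0.998) and Atp5j2 (0.996), and for Fads1 Xrcc6 (0.994), Akr1b3 (0.990) and Etohi1 (0.988).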
